A study of Mus musculus with 6 samples.

Results

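The mouse mitochondrial genome (mtDNA) encodes subunits of respiratory complexes I, III and IV and of ATP synthase, and 10 of these genes were followed here across 6 RNA-seq libraries of embryonic spinal cord: mt-Nd1, mt-Nd2, mt-Nd4, mt-Nd5, mt-Nd6, mt-Co1, mt-Co2, mt-Co3, mt-Cytb and mt-Atp6. They were taken by symbol from the 55433 genes counted in each library, and a gene was kept where its count was above 10 in 3 or more libraries. Of the 10 genes, 7 met that rule, and mt-Co2, mt-Co3 and mt-Atp6 were listed at 0 in all 6 libraries. The other mtDNA protein genes, mt-Nd3, mt-Nd4l and mt-Atp8, were also listed at 0 throughout.

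Whole spinal cords of C57BL/6J embryos at E13.5 were sequenced. The 3 libraries labelled NFIAcKO had the genotype NFIA-ff;Nestin-cre, a floxed Nfia gene with a cre that is driven in neural progenitors, and the 3 labelled control had NFIA-ff without cre. Every animal therefore carried the floxed allele and no cre-only group was part of the comparison, so cre and loss of NFIA cannot be told apart. Cells of the cord that do not descend from Nestin-expressing progenitors, such as vessels and microglia, are in the sample too. Gene counts summed to 47388945 to 48947073 in the libraries labelled NFIAcKO and to 43393053 to 51465763 in those labelled control, so that 3 counts, the limit that a count of 0 allows for counting error, were 0.0583 to 0.0691 CPM (counts divided by library size, in the usual unit).

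The targeted gene went against the labels as counted over the whole gene. Nfia had 106, 108 and 119 CPM in libraries labelled NFIAcKO, against 60.1, 59.1 and 79.2 CPM in those labelled control, a log2 fold change of 0.75 (SE 0.106, edgeR adjusted p = 0.0031). A count over the whole gene does not separate deleted from retained exons, so it does not check the genotype, and every direction given here is relative to the labels. Counts are scaled to TMM library sizes where CPM is written, and fold changes are libraries labelled NFIAcKO over libraries labelled control. A gene was said to rise or fall at a Benjamini-Hochberg adjusted p under 0.05 in edgeR's quasi-likelihood test over 17711 genes.

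Both strands of mtDNA are transcribed as long precursors, which are cut mainly at the transfer RNAs that lie between the coding genes. Levels of the mature messengers then depend on processing, polyadenylation and decay as well as on transcription. The proteins join subunits encoded in the nucleus: NADH dehydrogenase (complex I) takes the mt-Nd products, the cytochrome bc1 complex (complex III) takes cytochrome b, cytochrome c oxidase (complex IV) takes mt-Co1 to mt-Co3, and ATP synthase (complex V) takes mt-Atp6 and mt-Atp8. Differentiating neurons are known to rely increasingly on this respiration.

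Copies of mtDNA lie in nuclear chromosomes as pseudogenes, and a counter that keeps uniquely aligned reads assigns no read that matches both places equally well. In these libraries, reads aligned to several places are listed apart from the genes, at 8.94 to 10.5% of all reads. The counting setting for such reads is not given. All coordinates are GRCm38 and the sequences are GENCODE M21 transcripts. The 3 listed genes at 0 are shown first by their opening 60 bases, with capitals marking bases that are identical in the annotated nuclear copy.
mt-Atp6: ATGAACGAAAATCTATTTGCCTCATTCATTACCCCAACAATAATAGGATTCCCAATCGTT
mt-Co2: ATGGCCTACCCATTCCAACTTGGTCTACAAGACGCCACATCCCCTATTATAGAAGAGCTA
mt-Co3: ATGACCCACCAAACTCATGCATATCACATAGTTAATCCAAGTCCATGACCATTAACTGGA

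The mt-Atp6 gene (chrM:7927-8607, plus strand, the proton channel subunit a of ATP synthase) was identical to the pseudogene Gm10925 on the minus strand of chromosome 1 (chr1:24613974-24614651) over 678 of its 681 bases. For mt-Co2 (chrM:7013-7696), which carries the copper site that takes electrons from cytochrome c, Gm28661 (chr1:24614885-24615565) was identical over 681 bases. For mt-Co3 (chrM:8607-9390), a structural core subunit of complex IV, Gm28437 (chr1:24613189-24613971) was identical over 783 bases. Gm28438 matched mt-Nd3 at 99.7% identity over 345 bases and Gm10222 matched mt-Nd4l at 100% over 294, so these copies lie together in 1 stretch of chromosome 1.

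That stretch ends inside mt-Nd4 (chrM:10167-11544), a proton-pumping subunit of complex I, whose bases 1 to 876 of 1378 are identical in Gm28439 (chr1:24611535-24612410). Its other edge lies inside mt-Co1 (chrM:5328-6872), the catalytic subunit of complex IV, whose bases 1063 to 1545 align to Gm29216 (chr1:24615706-24616197) with 1 mismatch. Another copy, Gm13340 on chromosome 2, aligns to the whole of mt-Co1 at 97.6% identity. Both edges of the chromosome 1 stretch are shown over 90 bases, with capitals on the bases identical in Gm28439 for mt-Nd4 and on those aligned to Gm29216 for mt-Co1.
mt-Nd4, bases 832 to 921: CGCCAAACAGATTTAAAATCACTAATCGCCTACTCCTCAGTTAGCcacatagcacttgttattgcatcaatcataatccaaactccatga
mt-Co1, bases 1018 to 1107: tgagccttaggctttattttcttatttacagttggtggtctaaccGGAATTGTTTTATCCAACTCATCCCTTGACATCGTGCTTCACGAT

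Cut into overlapping windows of 75 bases, mt-Co2 and mt-Atp6 shared 99.5% of their windows exactly with an annotated nuclear copy, mt-Co3 99.9%, mt-Nd3 97.8% and mt-Nd4l 98.7%. The share was 61.5% for mt-Nd4 and 39.8% for mt-Co1, 5.71% for mt-Nd2 and 1.66% for mt-Nd5, and mt-Nd1, mt-Nd6 and mt-Cytb had no such window. The 5 genes sharing 97.8% or more of their windows were all listed at 0. Of the genes sharing 61.5% or less, 7 were counted, and mt-Atp8, which had no annotated copy, was listed at 0 as well. It lies between mt-Co2 and mt-Atp6 (chrM:7766-7969), whose copies are both in the chromosome 1 stretch. Copies were sought among annotated transcripts only, so an unannotated copy of mt-Atp8 there would not be found. No source used here gives the read length either, and the part of the copies in these zeros was not tested.

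Reads aligned to several places were 8.94, 9.13 and 9.05% of all reads in libraries labelled NFIAcKO, against 9.94, 10.5 and 9.41% in those labelled control, and the groups did not overlap. The nuclear copies themselves took few reads. Over the 7 copies in that stretch of chromosome 1 the counts summed to 296, 341 and 306 in libraries labelled NFIAcKO and to 299, 341 and 239 in those labelled control. No single copy among these exceeded 123 counts in a library.

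**Figure D1:**
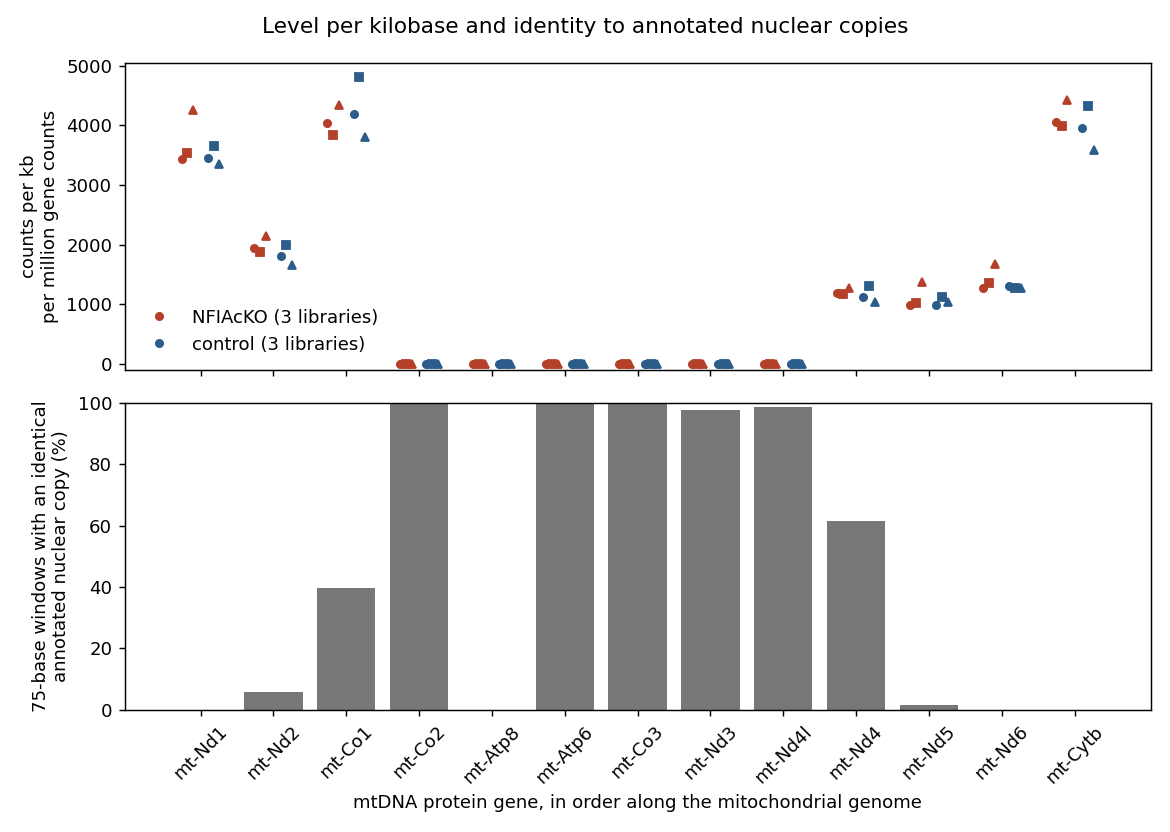
The upper panel plots CPM per kilobase (on total gene counts, without TMM) for each mtDNA protein gene in order along the genome, 1 point per library, with those labelled NFIAcKO left of those labelled control. The lower panel plots the share of each gene's 75-base windows that occur exactly in an annotated nuclear copy (%). It is 99.5 to 99.9% for mt-Co2, mt-Atp6 and mt-Co3, which are listed at 0. It is 0% for mt-Nd1, mt-Nd6 and mt-Cytb, and for mt-Atp8, which is also listed at 0.

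The 7 counted genes together made up about the same share of gene counts in both groups. It was 2.03, 2.002 and 2.32% in libraries labelled NFIAcKO, against 2.02, 2.25 and 1.89% in those labelled control. The highest library was NFIAcKO replicate 3 and the lowest control replicate 3, and the groups overlapped. Per gene, 6 of the 7 log2 fold changes were above 0 and 1 was below, with a median of 0.15 beside -0.01 over all tested genes. None of the 7 genes rose or fell, whereas 13.9% of all tested genes were called, 7.86% higher and 6.08% lower. Only mt-Nd6 had an unadjusted p under 0.05 in edgeR, as did 29.8% of all tested genes, and DESeq2 called 0 of the 7.

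In complex I, mt-Nd1 (chrM:2751-3707), a membrane subunit at the quinone-binding end of the complex, had 3323, 3538 and 4095 CPM in libraries labelled NFIAcKO, against 3259, 3423 and 3147 CPM in those labelled control. Its log2 fold change was 0.16 (SE 0.0998, 95% interval -0.06 to 0.37, edgeR adjusted p = 0.319). The groups overlapped, and NFIAcKO replicate 3 stood highest of the 6.

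One of the proton-pumping membrane subunits, mt-Nd2 (chrM:3914-4951), had 2046, 2042 and 2233 CPM in libraries labelled NFIAcKO, against 1849, 2026 and 1680 CPM in those labelled control. The groups did not overlap, by a margin of under 1% between the nearest libraries, and the log2 fold change was 0.19 (SE 0.0955, 95% interval -0.02 to 0.39, edgeR adjusted p = 0.208). Without TMM scaling its share of gene counts did overlap between groups, at 0.202, 0.195 and 0.223% in libraries labelled NFIAcKO and 0.187, 0.207 and 0.172% in those labelled control.

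The related pump subunits mt-Nd4 and mt-Nd5 differed less. For mt-Nd4 the counts were 1660, 1685 and 1770 CPM in libraries labelled NFIAcKO, against 1540, 1769 and 1412 CPM in those labelled control, a log2 fold change of 0.12 (SE 0.0974, edgeR adjusted p = 0.462). For mt-Nd5 (chrM:11742-13565) they were 1811, 1954 and 2525 CPM in libraries labelled NFIAcKO, against 1793, 2008 and 1851 CPM in those labelled control, a log2 fold change of 0.15 (SE 0.116, edgeR adjusted p = 0.407). Both overlapped between groups, and the mt-Nd5 difference rested on NFIAcKO replicate 3, without which its log2 fold change was -0.01.

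Encoded on the opposite strand to the other 9 listed genes, mt-Nd6 (chrM:13552-14070, minus strand) makes a small membrane subunit of complex I. It had 671, 738 and 873 CPM in libraries labelled NFIAcKO, against 669.7, 646 and 651 CPM in those labelled control. Every library labelled NFIAcKO lay above every control one, the lowest by only about 1 CPM. Without TMM scaling its share of gene counts did overlap. The share was 0.0663, 0.0706 and 0.0870% in libraries labelled NFIAcKO and 0.0678, 0.0661 and 0.0664% in those labelled control. The log2 fold change of 0.21 (SE 0.0979, 95% interval 0.01 to 0.42) was the largest of the 7 with all libraries, with an unadjusted p of 0.0450 and an adjusted p of 0.157 in edgeR. Of all tested genes, 33.4% had CPM that did not overlap between groups, 17.3% with the libraries labelled NFIAcKO higher and 16.1% with them lower, beside 2 of the 7 mtDNA genes.

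In complex III, mt-Cytb (chrM:14145-15288) encodes cytochrome b, the heme protein that passes electrons from quinol. It had 4697, 4765 and 5078 CPM in libraries labelled NFIAcKO, against 4475, 4837 and 4026 CPM in those labelled control. The groups overlapped, with a log2 fold change of 0.12 (SE 0.098, 95% interval -0.08 to 0.33, edgeR adjusted p = 0.431).

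In complex IV, mt-Co1 had 6306, 6211 and 6729 CPM in libraries labelled NFIAcKO, against 6391, 7260 and 5758 CPM in those labelled control. Control libraries held both the highest and the lowest value, and the log2 fold change was -0.01 (SE 0.104, 95% interval -0.23 to 0.21, edgeR adjusted p = 0.954).

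**Figure D2:**
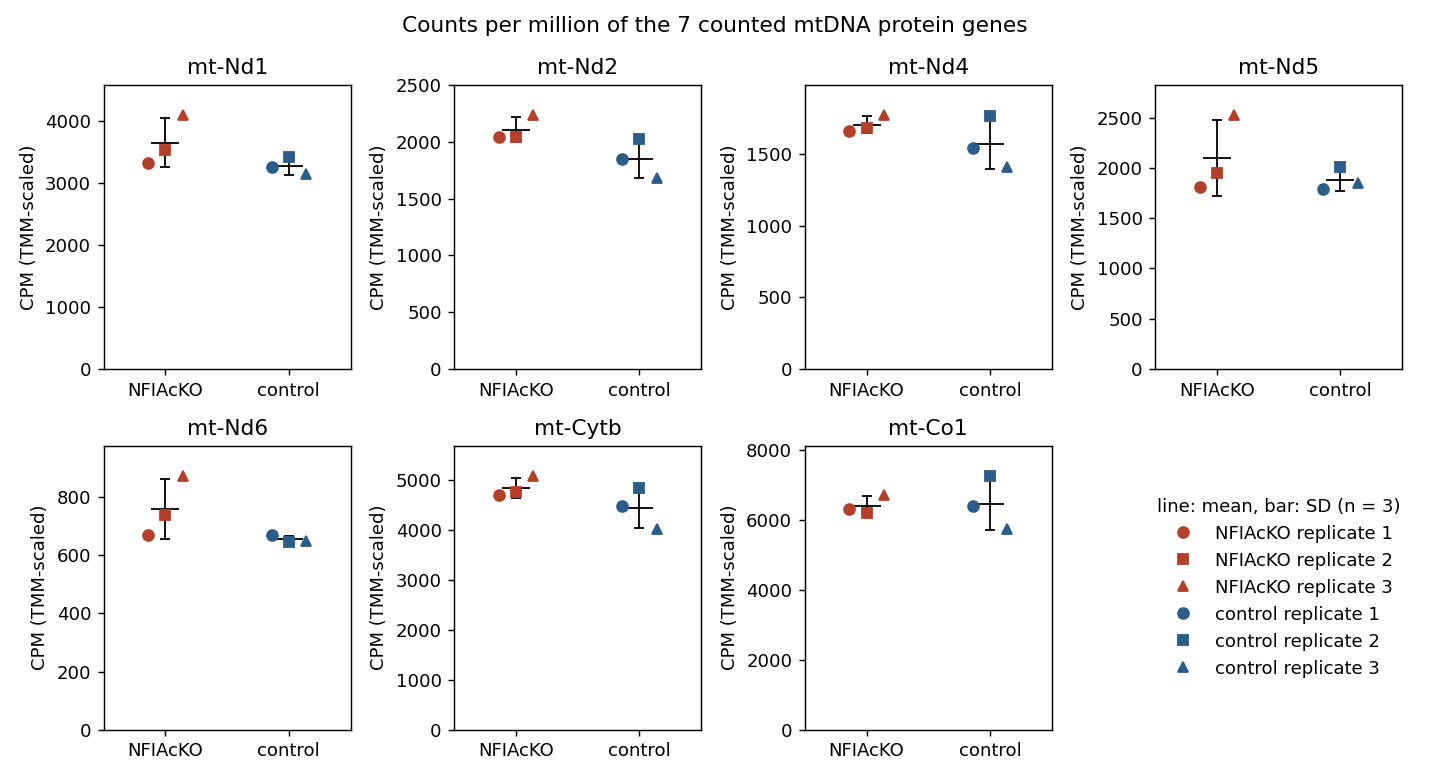
Each panel plots the CPM of 1 counted mtDNA gene, with a point per library, the mean as a line and the SD as a bar (n = 3 per group), libraries labelled NFIAcKO on the left. For mt-Nd2 and mt-Nd6 the groups do not overlap in CPM, although their shares of gene counts without TMM do. Replicate 3, the triangle, is the highest library labelled NFIAcKO in all 7 panels.

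Libraries whose file names share a number differed in how far they were apart; what that number stands for is not given. It groups replicates 1 and 2 of both labels and sets replicate 3 of both labels apart. Among replicates 1 and 2, the log2 difference was -0.12 for mt-Co1, -0.01 for mt-Nd5 and 0.02 to 0.10 for the other 5 genes. Between the replicates 3, with 1 library per label and therefore no test, it was 0.22 for mt-Co1 and 0.33 to 0.45 for the other 6. With NFIAcKO replicate 3 left out of the fit, the log2 fold change was 0.09 for mt-Nd6, 0.05 for mt-Nd1, 0.08 for mt-Nd4 and 0.08 for mt-Cytb. With control replicate 3 left out it was 0.04 for mt-Nd4, 0.05 for mt-Cytb and 0.12 for mt-Nd2, and with control replicate 2 left out 0.20 for mt-Nd4. Without NFIAcKO replicate 1 it was 0.30 for mt-Nd6 and 0.25 for mt-Nd5.

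Within the counted mtDNA messengers, mt-Co1 took a smaller part and mt-Nd2 a larger part in all 3 libraries labelled NFIAcKO than in any labelled control. The mt-Co1 share of the 7 summed counts was 30.7, 29.7 and 28.9% in libraries labelled NFIAcKO, against 32.0, 33.0 and 31.1% in those labelled control. The mt-Nd2 share was 9.98, 9.75 and 9.58% in libraries labelled NFIAcKO, against 9.26, 9.22 and 9.07% in those labelled control. Neither share overlapped between groups, and each gave an exact two-sided permutation p of 0.1, the smallest that 3 against 3 samples allow, among 7 shares compared. The remaining 5 shares overlapped. Without mt-Co1 and mt-Nd4, the genes with a near-identical nuclear copy, the mt-Nd2 share of the other 5 was 16.3, 15.7 and 15.1% in libraries labelled NFIAcKO, against 15.4, 15.7 and 14.8% in those labelled control. These overlapped, and the log2 ratio of the mt-Nd2 share was 0.04 in place of 0.09.

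Set against mt-Co1 in the same library, mt-Nd2 stood at 0.325, 0.329 and 0.332 in libraries labelled NFIAcKO, against 0.289, 0.279 and 0.292 in those labelled control. The mt-Cytb to mt-Co1 ratio was 0.745, 0.767 and 0.755 in libraries labelled NFIAcKO, against 0.700, 0.666 and 0.699 in those labelled control. For mt-Nd4 the ratio was 0.263, 0.271 and 0.263 in libraries labelled NFIAcKO, against 0.241, 0.244 and 0.245 in those labelled control. These 3 ratios did not overlap between groups, while those of mt-Nd1, mt-Nd5 and mt-Nd6 to mt-Co1 did. All of them share mt-Co1 as denominator, so they are not separate observations. Of all tested genes, 33.4% had CPM that did not overlap between groups. A ratio within a library shows unequal change and not which of its genes moved, and mt-Co1 and mt-Nd4 are the genes whose windows are partly shared with nuclear copies.

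Levels between genes were compared as CPM per kilobase of annotated gene (on total gene counts, without TMM), as means over the 6 libraries. The order was mt-Co1 at 4170, mt-Cytb at 4057, mt-Nd1 at 3616, mt-Nd2 at 1905, mt-Nd6 at 1362, mt-Nd4 at 1188 and mt-Nd5 at 1090. The neighbours mt-Co1 and mt-Cytb changed places in 3 of the 6 libraries, and mt-Nd6 with mt-Nd4 and mt-Nd4 with mt-Nd5 kept their order in 5 of 6.

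That order depended on the length used. Per kilobase of 75-base windows without an exact nuclear copy, mt-Co1 stood at 7280, mt-Cytb at 4338, mt-Nd1 at 3919, mt-Nd4 at 3262, mt-Nd2 at 2175, mt-Nd6 at 1589 and mt-Nd5 at 1156, each above the next in 6 of 6 libraries. Thus mt-Nd4 moved from below mt-Nd2 and mt-Nd6 to above them, and windows of 50 and 100 bases gave the same order.

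The strand of mt-Nd6 shows in its letters, and its opening 60 bases are set beside those of mt-Nd5, the gene it meets end to end; lower case marks that neither stretch is compared with a copy.
mt-Nd6: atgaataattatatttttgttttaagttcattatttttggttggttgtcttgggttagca
mt-Nd5: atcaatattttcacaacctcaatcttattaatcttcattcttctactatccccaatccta

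Read in its own sense, mt-Nd6 is 28.1% G and 5.97% C, while the other 9 listed genes are 8.0 to 16.1% G and 23.8 to 27.7% C. The 3′ ends of mt-Nd5 and mt-Nd6 overlap by 14 bases on opposite strands. No source used here gives the strand setting of the counting, so reads from mt-Nd6 and from transcripts of the opposite strand cannot be told apart. The ratio of mt-Nd6 to mt-Nd5 counts was 0.370, 0.378 and 0.346 in libraries labelled NFIAcKO, against 0.373, 0.322 and 0.352 in those labelled control, and the groups overlapped.

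Polyadenylation matters for reading mtDNA messengers from a library kit that selects poly(A) RNA, and several of these genes end without a whole stop codon. The last 30 bases of 4 genes are shown, with capitals on the stop codon or on what is left of it.
mt-Cytb: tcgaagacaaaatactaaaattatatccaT
mt-Nd4: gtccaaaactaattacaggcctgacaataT
mt-Nd1: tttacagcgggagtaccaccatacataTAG
mt-Nd6: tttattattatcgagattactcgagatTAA

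A single T follows the last full codon of mt-Cytb, mt-Nd4 and mt-Co3, and the poly(A) tail completes their stop codon to UAA. The annotated mt-Nd1 and mt-Nd2 genes end in TAG, and mt-Nd5, mt-Nd6, mt-Co1, mt-Co2 and mt-Atp6 in TAA. The last 2 bases of mt-Nd1 and of mt-Nd2 also belong to the next transfer RNA gene on the strand, mt-Ti and mt-Tw. Their annotated TAG therefore does not show whether their messengers need the tail as well. The counted genes annotated with a single T, mt-Cytb and mt-Nd4, both had log2 fold changes of 0.12, within the range of -0.01 to 0.21 over the 7. Those of mt-Nd1 and mt-Nd2 were 0.16 and 0.19.

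The ribosomal RNAs of mtDNA, which lie upstream of mt-Nd1 on the same strand, had lower means in the libraries labelled NFIAcKO without passing the test. The mt-Rnr1 level was 405, 398 and 436 CPM in libraries labelled NFIAcKO, against 565, 662 and 366 CPM in those labelled control (log2 fold change -0.36, SE 0.189, edgeR adjusted p = 0.246). The mt-Rnr2 level was 567, 578 and 570 CPM in libraries labelled NFIAcKO, against 815, 1012 and 503 CPM in those labelled control (log2 fold change -0.44, SE 0.238, edgeR adjusted p = 0.278). Controls spread widely for both, with control replicate 3 the lowest of all 6. The libraries were made with an mRNA kit, so these counts do not measure how much ribosomal RNA the cells held. Of the 22 mtDNA transfer RNA genes, 19 were at 0 in every library and the 2 tested, mt-Tc and mt-Tp, did not pass.

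Most nuclear genes for the partner subunits fell. Of 72 listed nuclear subunits of complexes I, III, IV and V, 69 were tested; 48 fell, none rose, and all 69 fold changes were negative, with a median log2 fold change of -0.40. Together they made up 0.626, 0.645 and 0.606% of gene counts in libraries labelled NFIAcKO, against 0.835, 0.955 and 0.734% in those labelled control, without overlap. The count of 48 changed with the libraries kept, from 3 to 63 when 1 was left out. It was 6 without NFIAcKO replicate 1, 3 without NFIAcKO replicate 3 and 12 without control replicate 1. Calls over all tested genes moved as well: 1076 (6.08%) fell with all libraries, and 139 to 2466 with 1 left out. Messengers of these subunits are short, and with the trend over gene length and GC content removed 19 of the 69 fell, with a median of -0.19.

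By complex, 24 of 35 tested nuclear subunits of complex I fell. Ndufb6, an accessory membrane subunit, averaged 21.1 ± 1.51 CPM in libraries labelled NFIAcKO and 33.6 ± 6.45 CPM in those labelled control (SD, n = 3 each), a log2 fold change of -0.67 (edgeR adjusted p = 0.00706). In complex III 7 of 8 fell, among them Uqcr10 with 31.3 ± 2.89 CPM in libraries labelled NFIAcKO and 51.0 ± 12.4 CPM in those labelled control (log2 fold change -0.71, edgeR adjusted p = 0.0128). In complex IV 8 of 11 fell, including Ndufa4, a subunit now assigned to that complex, with 111 ± 3.81 CPM in libraries labelled NFIAcKO and 180 ± 41.5 CPM in those labelled control (log2 fold change -0.70, edgeR adjusted p = 0.0104).

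In complex V 9 of 15 fell, for instance Atp5g3, 1 of the genes for the ring subunit c, with 172 ± 13.0 CPM in libraries labelled NFIAcKO and 238 ± 31.6 CPM in those labelled control (log2 fold change -0.47, edgeR adjusted p = 0.0101). Complex II, which has no mtDNA-encoded subunit, had 3 of 4 genes lower. No list of nuclear subunits held a gene that rose. With NFIAcKO replicate 3 left out, complexes III, IV and V had 0 genes called lower and complex I had 3; without NFIAcKO replicate 1 they had 1, 1, 0 and 4, and without control replicate 1 they had 2, 2, 1 and 7. Complex II had 1 in each of these fits, complex V had 4 without NFIAcKO replicate 2 and 5 without control replicate 2, and complex I had 14 without control replicate 2.

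**Figure D3:**
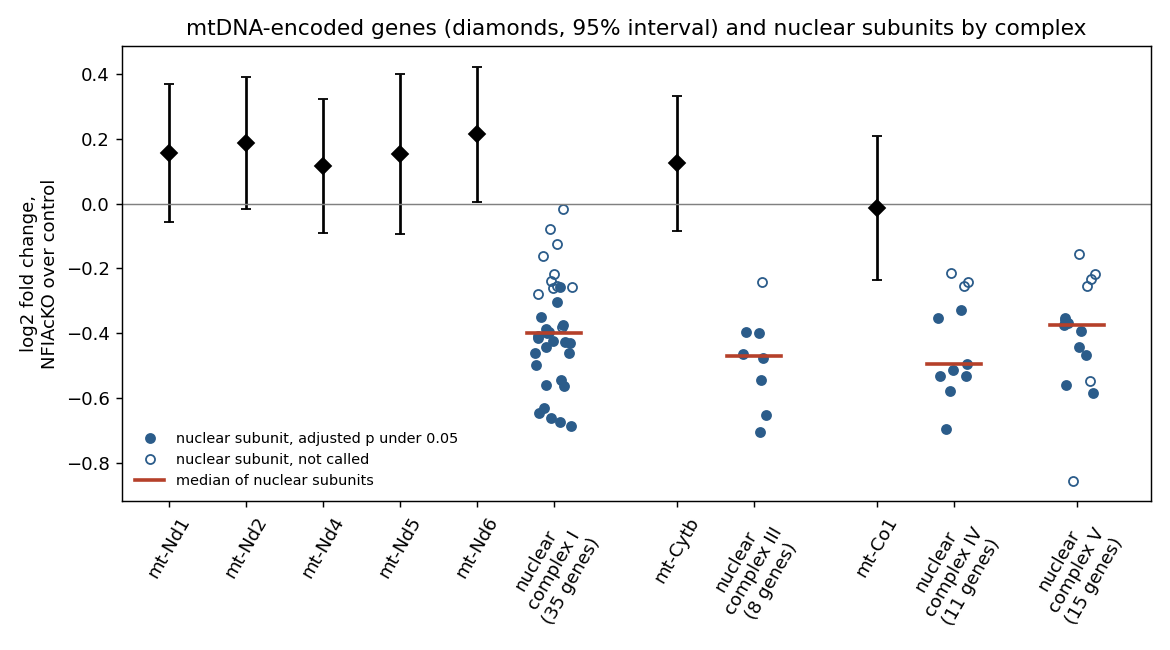
Log2 fold changes (libraries labelled NFIAcKO over those labelled control) are plotted by complex, with each counted mtDNA gene as a diamond with its 95% interval and each tested nuclear subunit as a circle, filled where the adjusted p was under 0.05. The mtDNA genes lie between -0.01 and 0.21 and the medians of the nuclear lists between -0.37 and -0.50.

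The ratio of mtDNA-encoded to nuclear-encoded subunit counts was higher in each library labelled NFIAcKO than in any labelled control. Over complexes I, III, IV and V it was 3.24, 3.10 and 3.83 in those libraries, against 2.42, 2.35 and 2.58 in the ones labelled control. Its numerator held the 7 counted genes, none of complex V, while nuclear complex V subunits are in its denominator. In complex I alone it was 5.07, 4.92 and 6.27 in libraries labelled NFIAcKO, against 3.76, 3.59 and 4.05 in those labelled control. The mt-Cytb to nuclear complex III ratio was 7.20, 6.87 and 8.06 in libraries labelled NFIAcKO, against 4.98, 4.62 and 5.19 in those labelled control, and for mt-Co1 and complex IV it was 5.08, 4.70 and 5.72 in libraries labelled NFIAcKO, against 3.79, 3.72 and 4.11 in those labelled control.

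None of the 4 ratios overlapped between groups, and they are descriptions with no test. On the log2 scale the overall difference was 0.47, with 0.41 within replicates 1 and 2 and 0.57 between the replicates 3. In whole tissue, fewer cells of a type and less RNA per cell cannot be told apart, and the same holds for fewer mitochondria and less RNA in each.

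**Figure D4:**
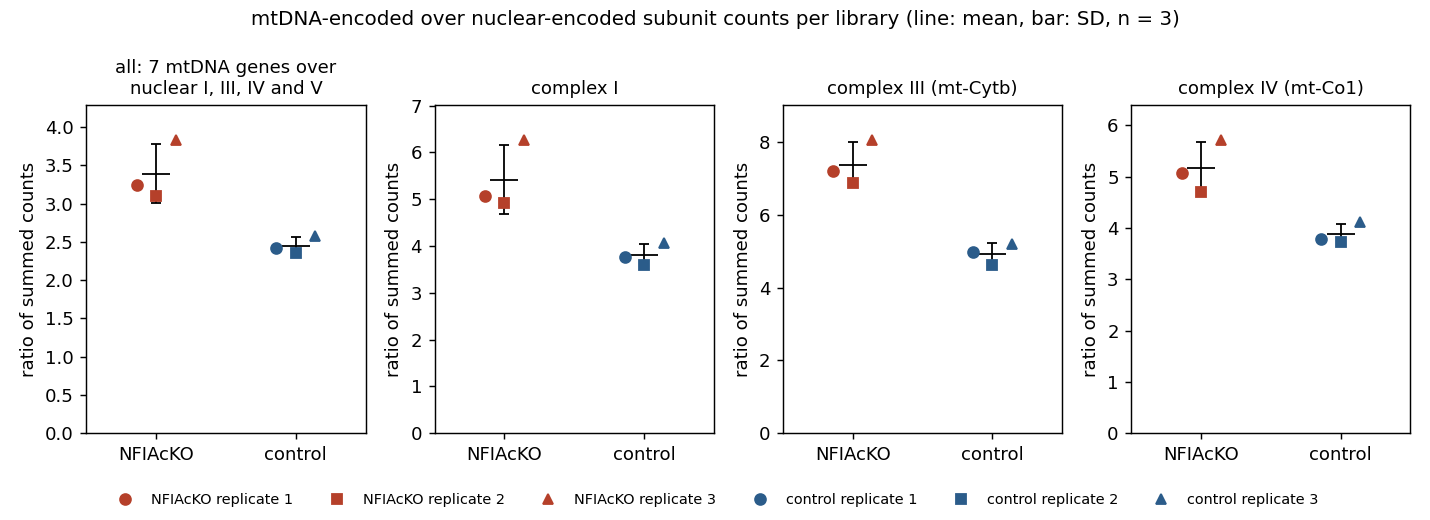
The ratio of summed mtDNA-encoded to summed nuclear-encoded subunit counts is plotted per library for all complexes together and for complexes I, III and IV. The panel for all complexes sets the 7 counted genes, none of complex V, over nuclear subunits of complexes I, III, IV and V. Libraries labelled NFIAcKO are on the left, with the mean as a line and the SD as a bar (n = 3). In every panel the 3 libraries labelled NFIAcKO lie above the 3 labelled control, for example at 3.10 to 3.83 (labelled NFIAcKO) against 2.35 to 2.58 (labelled control) over all complexes.

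Fold changes also moved with gene length and GC content. Nuclear genes of the length and GC content of the mtDNA genes had a fitted trend of -0.36 to -0.53 on the log2 scale between the groups. When each gene was read against this trend, 6 of the 7 mtDNA genes were called higher, where 3.87% of 17504 genes were called higher and 3.87% lower. The log2 difference from the trend was 0.64 for mt-Nd2 (edgeR adjusted p = 0.00619), 0.59 for mt-Nd1 (0.0145), 0.54 for mt-Nd4 (0.00791) and for mt-Cytb (0.00836), 0.50 for mt-Nd5 (0.0237) and 0.35 for mt-Co1 (0.0219). It was 0.71 for mt-Nd6 and was not called (0.0602). The trend was fitted on nuclear genes, and whether it applies to mtDNA messengers, which are neither spliced nor capped, was not tested.

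**Figure D5:**
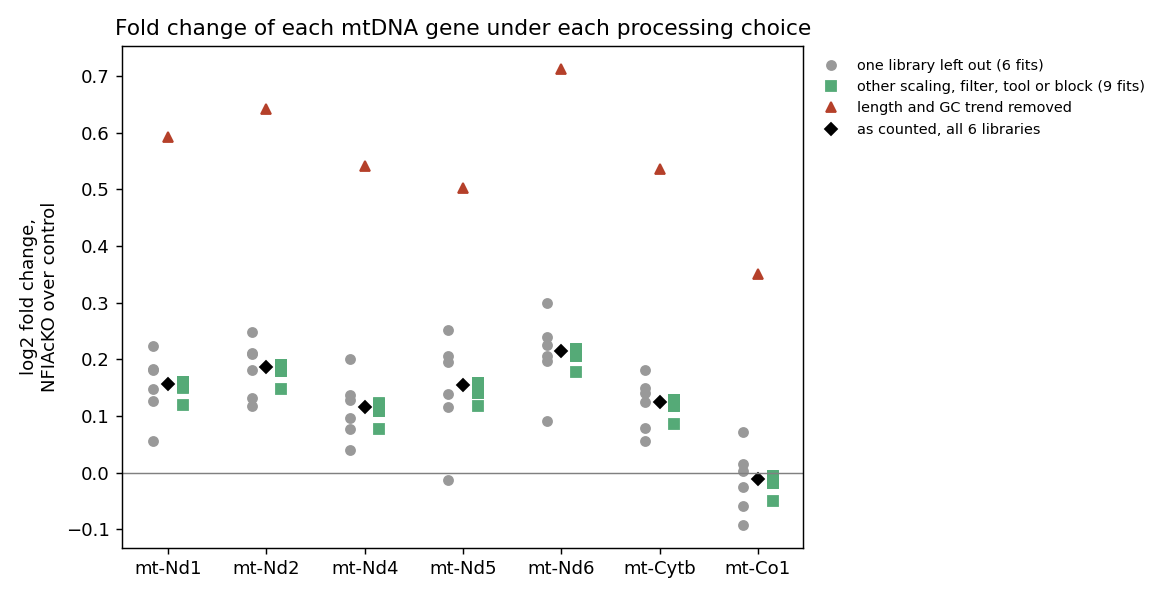
The log2 fold change of each counted mtDNA gene is plotted for the 6 libraries as counted (diamonds), with 1 library left out (circles), under another scaling, filter, tool or block (squares) and with the length and GC trend removed (triangles). The triangles lie between 0.35 and 0.71, above every other point of the same gene, and mt-Co1 and mt-Nd5 have points on both sides of 0.

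The nuclear genes that act on mtDNA and its RNA were followed as lists. Among 16 tested genes of mtDNA transcription and replication, 1 fell and none rose, beside 6.08% of all tested genes that fell and 7.86% that rose, and the median log2 fold change was -0.13. The one that fell was Tefm, the mitochondrial transcription elongation factor, at 7.58, 8.62 and 7.73 CPM in libraries labelled NFIAcKO, against 10.7, 12.9 and 9.87 CPM in those labelled control (log2 fold change -0.49, edgeR adjusted p = 0.0258). With the length and GC trend removed, Tefm was not called (-0.21, edgeR adjusted p = 0.241). Tfam, which packages mtDNA and starts its transcription, averaged 46.4 ± 1.80 CPM in libraries labelled NFIAcKO and 53.8 ± 1.42 CPM in those labelled control, did not overlap and did not pass (log2 fold change -0.21, edgeR adjusted p = 0.0830). Without any 1 library other than control replicate 3 this list had 0 genes lower, and without control replicate 3 it had 3. The RNA polymerase gene Polrmt averaged 30.9 ± 2.70 CPM in libraries labelled NFIAcKO and 30.1 ± 2.48 CPM in those labelled control.

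In the list of mt-RNA processing and stability, 2 of 19 tested genes fell and none rose, beside 6.08% and 7.86% of all tested genes. In this list 0 were called lower without any 1 library other than control replicate 3. Fastkd2, an RNA-binding protein of mitochondrial RNA granules, averaged 17.6 ± 0.574 CPM in libraries labelled NFIAcKO and 23.9 ± 3.94 CPM in those labelled control (log2 fold change -0.44, edgeR adjusted p = 0.0261). Hsd17b10, a dehydrogenase that is also a subunit of mitochondrial RNase P, averaged 41.2 ± 2.26 CPM in libraries labelled NFIAcKO and 53.5 ± 8.51 CPM in those labelled control (log2 fold change -0.38, edgeR adjusted p = 0.0305). With the length and GC trend removed, Fastkd2 was still called (-0.41, edgeR adjusted p = 0.0328) and Hsd17b10 was not (-0.12, edgeR adjusted p = 0.329). Lrpprc, which stabilises mtDNA messengers, averaged 84.8 ± 1.83 CPM in libraries labelled NFIAcKO and 76.8 ± 6.66 CPM in those labelled control (edgeR adjusted p = 0.259). Among 12 mitochondrial translation factors edgeR and DESeq2 called 0, 2 had an unadjusted p under 0.05 in edgeR, and the nearest was Mtif2, an initiation factor, at an adjusted p of 0.132; 2 were called lower without control replicate 3.

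Of 11 regulators of mitochondrial biogenesis, 4 rose and none fell, beside 7.86% of all tested genes that rose and 6.08% that fell. Of these regulators 2 were called higher without NFIAcKO replicate 2, and 1 without any other single library except control replicate 3. Over all tested genes, 1392 rose with all libraries and 282 to 2703 with 1 left out. Esrrg, an orphan nuclear receptor of oxidative metabolism, had 228, 206 and 209 CPM in libraries labelled NFIAcKO, against 159, 140 and 162 CPM in those labelled control (log2 fold change 0.48, SE 0.0841, edgeR adjusted p = 0.00549). Its relative Esrrb averaged 25.6 ± 2.27 CPM in libraries labelled NFIAcKO and 18.6 ± 3.04 CPM in those labelled control (log2 fold change 0.46, edgeR adjusted p = 0.0236). Pprc1, a coactivator of the PGC-1 family, averaged 56.8 ± 3.15 CPM in libraries labelled NFIAcKO and 43.4 ± 4.92 CPM in those labelled control (log2 fold change 0.39, edgeR adjusted p = 0.0155). Ppargc1a, the founding member of that family, had 32.7, 27.2 and 36.2 CPM in libraries labelled NFIAcKO, against 25.6, 24.2 and 26.2 CPM in those labelled control, and passed narrowly (log2 fold change 0.34, edgeR adjusted p = 0.0490). With the length and GC trend removed, Ppargc1a did not pass (edgeR adjusted p = 0.0531). In that fit Esrrg (0.0108), Pprc1 (0.0389) and Esrrb (0.0474) did. Nrf1 and Gabpa, which drive nuclear respiratory genes, did not pass.

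Across the 6 libraries pairs of counted mtDNA genes differed in how closely they followed each other, which is given as a description without a test. Pearson's r of log2 CPM was 0.98 between mt-Cytb and mt-Nd2 and 0.98 between mt-Cytb and mt-Nd4. It was 0.95 between mt-Nd5 and mt-Nd1 and 0.94 between mt-Nd6 and mt-Nd1, and lowest, at 0.17, between mt-Co1 and mt-Nd6. Outside mtDNA, among 10293 genes with a mean of at least 10 CPM, the 5 whose log2 CPM followed the summed mtDNA genes most closely were Lrba (r = 0.996), Clock (0.977), Vps37a (0.976), Rc3h2 (0.946) and Nbeal1 (0.945). These values share library preparation and scaling, and the highest of 10293 correlations over 6 points are high by selection.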

How the data were processed

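Whole-number counts per gene symbol, not normalized, were deposited by the authors, 1 file per library. Per the labels' protocols, RNeasy Mini columns and a stranded mRNA kit from Illumina were used. DESeq2, HTSeq, STAR 2.6.1a and mm10 appear in the submitters' processing notes without their roles; no source used here gives the annotation release, strand setting or read length. HTSeq-style summary lines were kept out of totals: 3.75 to 4.62% of all reads fell in no gene, 3.90 to 4.22% in several genes and 8.94 to 10.5% in several places.

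Groups were compared in edgeR 4.0.16 (R 4.3.3) by the robust quasi-likelihood test with TMM scaling and filterByExpr, adjusted over 17711 genes, and the SE was derived from the F statistic. Alternatives were other scalings and filters, DESeq2 1.42.0, limma 3.58.1, a replicate block, removal of a spline trend (5 degrees of freedom) over length and GC content, and leaving out each library. The fit was also run on counts simulated with a common dispersion for all genes and no trend over length or GC content. That run does not cover the spread between libraries seen here. Samples are separate embryos per the series' design text. Nuclear copies were sought by blastn 2.17.0 among GENCODE M21 transcripts (80% identity and 100 aligned bases or more), and 53569 of 55433 symbols matched that annotation. Named genes were the mtDNA genes, up to 4 genes of smallest p in each list, Nfia, the copies and the 5 closest correlates; Polrmt, Nrf1, Gabpa, Ndufs3, Uqcrc1, Slirp, Hspd1 and cell type markers were added after their values were seen. The members and lists were chosen with earlier results of these data known.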

Additional observations from a re-analysis of the deposited data

How the results depend on the processing

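Over 16 alternatives, 102 of 112 values of the 7 mtDNA genes kept direction and side of the threshold, and 5 were newly called and 5 changed sign. All 5 new calls came from removing the length and GC trend, which called 6 of the 7 higher, 678 genes higher and 678 lower, and 19 nuclear subunits lower, and turned mt-Co1 to 0.35. The cause was not tested. The sign of mt-Co1 also turned without NFIAcKO replicate 1 (0.0028), NFIAcKO replicate 2 (0.014) and control replicate 2 (0.071), and between the replicates 3 (0.22), with -0.0924 to 0.071 over the single libraries left out. For mt-Nd5 it turned without NFIAcKO replicate 3 (-0.0127, against up to 0.25 without another library) and among replicates 1 and 2 (-0.0123); the comparisons by file-name number were chosen after seeing the data. Without the trend removal, adjusted p was 0.0930 (DESeq2) to 0.567 for mt-Nd6 and 0.0989 to 0.464 for mt-Nd2. Leaving out 1 library gave 282 to 2703 genes higher, 139 to 2466 lower and 3 to 63 nuclear subunits lower, and 0 mtDNA genes. The log2 ratio of summed shares ranged from -0.03 to 0.11 and that of mtDNA over nuclear subunits from 0.37 to 0.53. Upper-quartile scaling moved the split to 1057 higher and 1434 lower, beside 1392 and 1076. To look for pairing, each group's mean was first subtracted from the log2 CPM of every gene. What was left correlated at 0.0875, 0.120 and 0.119 between same-numbered samples, and at -0.0894 to -0.0369 for every other pair across the groups. The subtraction makes the values of a group sum to 0, so positive values for some pairs go with negative values for others. The labels give no pairing, and whether same-numbered samples share a litter or preparation was not tested. With a replicate block 1353 genes rose, 1119 fell and 0 mtDNA genes passed. Of 352 list counts, 296 stayed within 1.5 times. Depth did not limit the counted genes; the genes at 0 have no value here.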

Other observations

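Further mitochondrial genes and the cell makeup of the cords were described by the same fit. Of 26 tested assembly factors of the respiratory complexes, 5 fell and none rose, beside 6.08% and 7.86% of all tested genes. Their median log2 fold change was -0.19. Leaving out 1 library gave 1 (NFIAcKO replicate 3), 2 (NFIAcKO replicate 1 or control replicate 1) or 11 (control replicate 3) genes lower. Of 14 tested genes of the mitochondrial stress response, 3 fell and none rose, with 0 lower without NFIAcKO replicate 1, 1 without NFIAcKO replicate 3 and 5 without control replicate 3. Psat1 and Phgdh, enzymes of serine synthesis, averaged 123 ± 5.98 and 58.4 ± 3.52 CPM in libraries labelled NFIAcKO, against 173 ± 24.0 and 77.1 ± 9.20 CPM in those labelled control (edgeR adjusted p = 0.00753 and 0.0139). The chaperonin partners differed: Hspe1 averaged 47.4 ± 1.93 CPM in libraries labelled NFIAcKO and 66.8 ± 12.9 CPM in those labelled control (edgeR adjusted p = 0.0151), and Hspd1 304 ± 9.99 CPM in libraries labelled NFIAcKO and 264 ± 18.6 CPM in those labelled control (edgeR adjusted p = 0.107).

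Every count of called markers given here stands beside 7.86% of all tested genes that rose and 6.08% that fell. Summed marker levels of neurons were 9769 to 10285 CPM in libraries labelled NFIAcKO and 8626 to 8965 CPM in those labelled control, with 4 of 10 markers higher and none lower. Endothelial markers summed to 341 to 365 CPM in libraries labelled NFIAcKO and 265 to 318 CPM in those labelled control (4 of 6 higher, 1 lower). Astrocyte-lineage markers went both ways: of 5 tested, 2 fell and 1 rose, with a median log2 fold change of -0.36. Aldh1l1 had a log2 fold change of -0.81 (edgeR adjusted p = 0.000804) and S100b of -1.32 (0.0286), while Slc1a2 averaged 337 ± 1.89 CPM in libraries labelled NFIAcKO and 266 ± 19.7 CPM in those labelled control. Their sum, of which Slc1a2 was the largest part, was 484 to 507 CPM in libraries labelled NFIAcKO and 445 to 476 CPM in those labelled control. Microglial markers summed to 69.1 to 76.7 CPM in libraries labelled NFIAcKO and 89.4 to 95.1 CPM in those labelled control, with 3 of 7 tested markers lower and Trem2 at 0, and dorsal root ganglion markers to 232 to 264 CPM in libraries labelled NFIAcKO and 269 to 272 CPM in those labelled control, with none of 6 called. Sums of progenitor, oligodendrocyte-lineage, erythroid, muscle, and cartilage and meninges markers overlapped between groups, and muscle markers were low throughout, at 5.12 to 8.43 CPM in libraries labelled NFIAcKO and 3.89 to 8.76 CPM in those labelled control. Within those lists, 3 of 7 progenitor markers fell (Fabp7, log2 fold change -0.57; Slc1a3, -0.38; Hes5, -0.38) and Nes rose (0.47). Olig1 fell (-0.70) and was the only 1 of 5 oligodendrocyte-lineage markers called, 2 of 10 erythroid genes rose (Hba-x, 0.52; Slc4a1, 0.62), and no muscle, cartilage or meninges marker was called. The part of these differences in the mtDNA levels was not tested.

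Among nuclear genes, the complex I subunit Ndufs3 was also listed at 0 in all 6 libraries. Uqcrc1, a core subunit of complex III, and Slirp, the partner of Lrpprc, had at most 0.0216 and 0.127 CPM in any library. The cause was not tested.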
